A study of Mus musculus with 10 samples.

Results

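Molecular chaperones were followed as 86 of the 25965 rows of an RNA-seq table from mouse embryonic stem cells (mESCs) that the labels give as male. The members were chosen by gene name alone: the HSP70 and HSP110 families (Hspa and Hsph), HSP90 and its mitochondrial relative Trap1, the small heat shock proteins (Hspb), HSP60 and its partner HSP10 (Hspd and Hspe), the J-domain co-chaperones (Dnaja, Dnajb and Dnajc), the subunits of the chaperonin CCT (Tcp1 and Cct), and the heat shock factors Hsf1 and Hsf2. The Hspb names also took in Hspbp1, Hspbap1 and Hspb11, which are not small heat shock proteins. Pseudogene rows were left out. By the textbook location of the protein, 46 members were placed in the cytosol or nucleus, 9 among the CCT genes, 13 in the endoplasmic reticulum (ER), 11 in mitochondria and 7 elsewhere or in no assigned place.

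All cells were C57/Bl6 and grew in 2i, where inhibitors of 2 kinases keep the naive state. The study made 2 lines with the culture method it calls Keniry2022, in which cells grow in suspension and are passaged daily. Each line was split at passage 0 (p0) and kept for 10 or 20 passages (p10, p20) under Keniry2022 or under the reference method Mulas2019. In Mulas2019 cells attach to gelatin and are passaged every other day, at a lower plating density and in less medium. At equal passage the Mulas2019 cells had therefore been in culture for more days, and p10 Mulas2019 matches p20 Keniry2022 in days. The labels write New or Off for Keniry2022 and Old or On for Mulas2019, and this reading rests on the methods of the study. There were 5 groups (p0, p10 Keniry2022, p20 Keniry2022, p10 Mulas2019 and p20 Mulas2019) of 2 libraries each, 1 per line, so the 4 libraries of a method are 2 lines at 2 passages and p0 shares its culture method with Keniry2022.

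Library totals worked out from the table ranged from 24053996 to 30236823 reads, and the members took 2.25% to 2.53% of them. Within every group, 1 library held at most 132 reads of Y-linked genes and the other at least 4578, so 1 of the lines had few Y-linked transcripts. The library labelled replicate 1 was the low one in every group but p20 Keniry2022, where the order was the opposite. The p0 libraries stood further apart than the other pairs, with an SD of the log2 difference of 0.611 against 0.230 to 0.265. Naive markers were present (8 of 8 between 4.73 and 9.23 on the log2 RPKM scale, in every library). The 5 fibroblast markers were below 0 in all libraries and Dcn had 0 reads, and 4 of 6 primitive endoderm markers were below 0 in all libraries. Of 4 trophoblast markers, Cdx2 and Elf5 were below 0 in all libraries and were not tested, whereas Eomes (0.70 to 1.58) and Tfap2c (4.20 to 5.01) were above 0 in all.

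Chaperones bind unfolded or partly folded proteins and release them after cycles of ATP binding. HSP70 proteins hold short hydrophobic stretches, J-domain proteins deliver the clients and trigger hydrolysis, HSP110 proteins exchange the nucleotide, and HSP90 finishes the folding of kinases and receptors. CCT is a double ring that folds actin and tubulin, each cell compartment keeps its own HSP70 and HSP90 relatives, and Hsf1 raises the cytosolic set after heat or other protein damage. The ER set answers to the unfolded protein response. In bulk RNA, a lower level in each cell and fewer cells that express a gene cannot be told apart.

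The promoters carry the elements through which these systems are regulated, and are shown here for some of the members described below. RefSeq promoter windows (GRCm38.p6, 250 bases before to 50 after the start) were matched by symbol for 70 of the 86 members. The core of the heat shock element, TTCNNGAA or GAANNTTC (each the same on both strands, with overlapping matches counted), lay in a window of 19 of 70 members (27.1%), against 17.0% of all 27025 genes. The share was 30.8% of 39 cytosolic members, 37.5% of 8 CCT members, 25% of 8 mitochondrial members and 9.09% of 11 ER members. The stretches below are 30 bases each, 5′ to 3′ on the strand of the gene, with the matched letters in capitals.
Hsph1 (chr5:149636351-149636380, minus strand): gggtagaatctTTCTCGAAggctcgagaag
Dnaja1 (chr4:40722333-40722362, plus strand): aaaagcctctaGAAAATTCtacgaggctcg
Dnajb6 (chr5:29735843-29735872, plus strand): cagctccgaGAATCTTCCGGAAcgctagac
Cct5 (chr15:31601862-31601891, minus strand): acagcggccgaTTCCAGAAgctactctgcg
Cct2 (chr10:117063399-117063428, minus strand): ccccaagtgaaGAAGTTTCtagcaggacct
Hspe1 (chr1:55088053-55088082, plus strand): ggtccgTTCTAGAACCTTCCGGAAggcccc
Hspb1 (chr5:135887791-135887820, plus strand): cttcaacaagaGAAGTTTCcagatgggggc
Hspb1 (chr5:135887811-135887840, plus strand): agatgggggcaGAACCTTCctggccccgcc
Hspa1b (chr17:34959324-34959353, minus strand): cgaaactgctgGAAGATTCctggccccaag

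Hspe1 and Hspd1 are transcribed away from each other from a shared region on chromosome 1. Their window held 3 overlapping cores in a run of 18 bases, which began 89 bases before the Hspe1 start. Dnajb6, which is shown after its values were seen, held 2 overlapping cores in 13 bases, and Hspb1 held 2 that are apart and lie 117 and 97 bases before the start. Hsph1 had further cores after its start, and the core of Cct6a also lay after the start.

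The ER stress element (ERSE, read as CCAAT, any 9 bases and CCACG, on either strand) lay in a window of 3 members, all of them in the ER (27.3% of the 11 matched there), against 0.137% of all genes. Hsp90b1 held 2, of which the second is on the other strand.
Hspa5 (chr2:34772019-34772048, plus strand): acttcaCCAATCGGAGGCCTCCACGacggg
Hsp90b1 (chr10:86705633-86705662, minus strand): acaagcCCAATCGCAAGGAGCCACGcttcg
Hsp90b1 (chr10:86705528-86705557, minus strand): agagtgCGTGGTGAGGCACGATTGGtgagt
Dnajc3 (chr14:118937821-118937850, plus strand): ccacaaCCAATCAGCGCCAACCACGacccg
Whether a match is used in these cells was not measured.

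The comparison of the culture methods, with p10 and p20 pooled (4 libraries against 4), asked which chaperones differ between cells kept under Keniry2022 and Mulas2019. The fit takes the 4 libraries of a method as independent, although they are 2 lines at 2 passages. Its SEs and p-values rest on that. The members moved mostly upward under Keniry2022, by small amounts. Of 70 members that passed the filter on low values, 39 were called at an adjusted p below 0.05 (limma, Benjamini-Hochberg over 11654 features), which is 55.7% against 51.5% of all features tested. In direction the members differed from the whole: 30 were higher under Keniry2022 (42.9%, against 25.9% of all features) and 9 were lower (12.9%, against 25.5%). In the model of all 10 libraries the same contrast called 18 members (15 higher, 3 lower), 25.7% against 19.2% of all features. The median log2 difference in the pooled fit was 0.14 over the members and -0.0030 over all features. Of the 70, 27 had all 4 Keniry2022 libraries above all 4 Mulas2019 libraries and 9 had them below, against 23.1% and 23.4% of all features. All 39 called members kept their direction both within the libraries with few Y-linked reads and within those with many. These are the libraries that gave the calls. Where the methods do not overlap, the direction in each set is fixed in advance, so this adds no separate support.

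**Figure D1:**
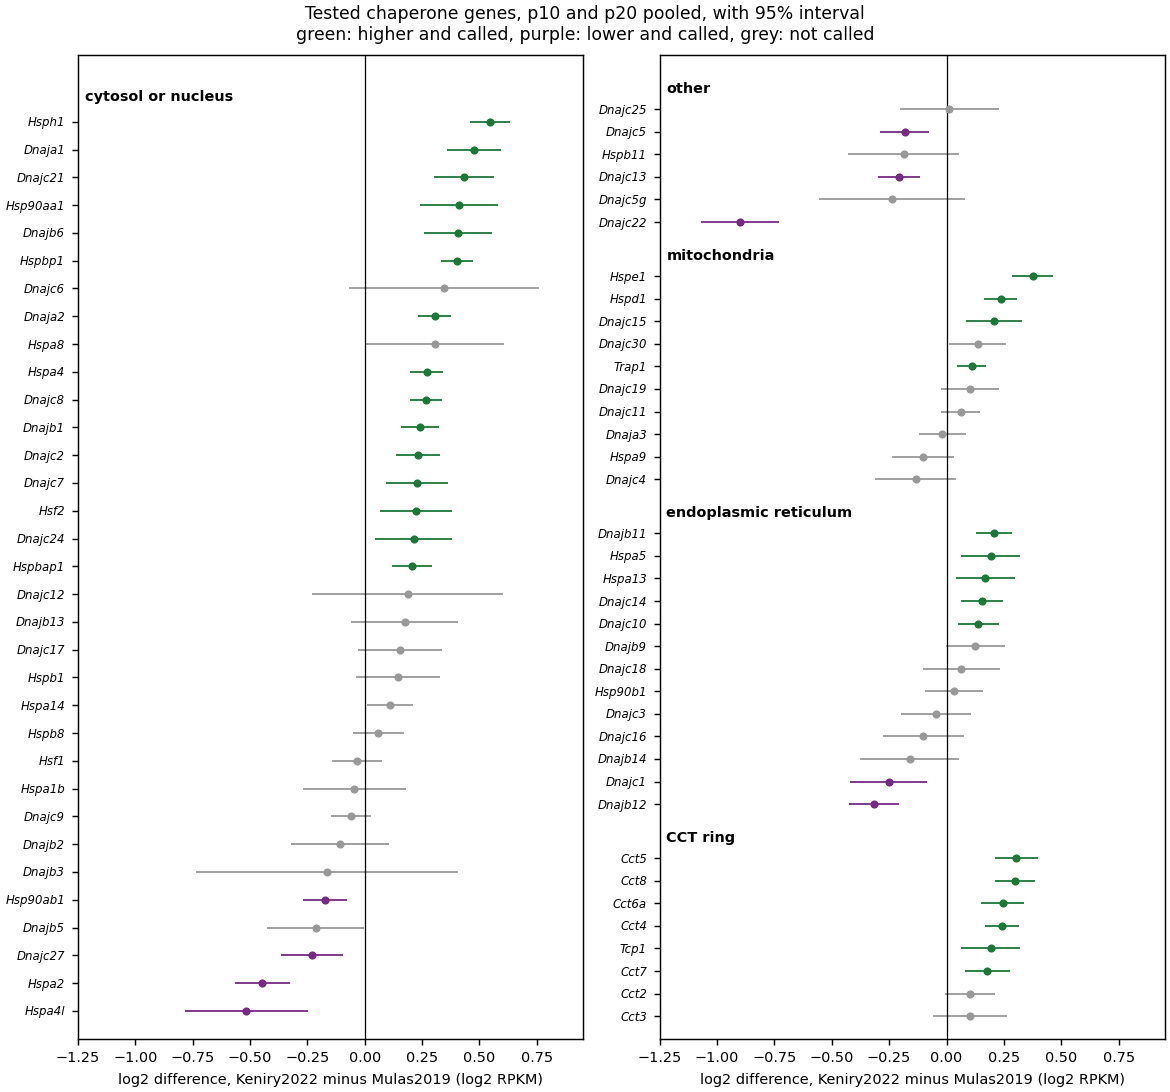
Log2 difference between Keniry2022 and Mulas2019 for the 70 tested members, by location, with its 95% interval (limma, 4 libraries per method). Green points are higher and called, purple points lower and called, and grey points not called; most cytosolic and CCT members lie right of 0, and Dnajc22 lies furthest left at -0.90.

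By location, the cytosolic members had 15 of 33 tested called higher and 4 lower (median 0.21), and the CCT genes 6 of 8 higher and none lower (median 0.22). The 15 include Hspbp1 (0.40) and Hspbap1 (0.21), whereas the small heat shock proteins Hspb1 and Hspb8 were not called. In mitochondria 4 of 10 were higher and none lower (median 0.11). The ER members had 5 of 13 higher and 2 lower (median 0.064). The 6 tested members placed elsewhere had 3 lower and none higher (median -0.20). These medians stand beside -0.0030 over all features, and the counts beside 25.9% higher and 25.5% lower. The counts are small and no test was made between locations. Without the filter the cytosolic median, over 46 members, was 0.014, quantile normalisation brought the CCT median to 0.069, and the stricter filter raised the ER median to 0.13 over 10 members.

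The largest rise was in Hsph1, the cytosolic HSP110 that exchanges nucleotide on HSP70 (chr5:149614287-149636376, minus strand). Its log2 RPKM was 6.41 and 6.46 at p10 and 6.40 and 6.53 at p20 under Keniry2022, and 5.91, 5.96, 5.88 and 5.87 in the same order under Mulas2019. The p0 libraries held 5.72 and 6.06. The methods did not overlap, and of the p0 libraries 1 lay just below and 1 just above the Mulas2019 values. The log2 difference between the methods was 0.54 ± 0.039 (SE, 4 libraries per method), or 1.46-fold, with an adjusted p of 3.23e-05 (limma).

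Some J-domain co-chaperones of the cytosol were also higher. Dnaja1, a co-chaperone that brings clients to HSP70, held 3.08, 3.08, 2.92 and 3.01 under Keniry2022 against 2.51, 2.50, 2.62 and 2.55 under Mulas2019, and 3.23 and 2.93 at p0. Its difference was 0.48 ± 0.053, and here p0 lay with Keniry2022. Reads of Dnaja1 can come from Smu1, whose exons overlap it by 608 bases on the other strand. Dnajc21, a ribosome biogenesis factor, was higher by 0.43 ± 0.059. Its levels were 5.18 to 5.25 under Keniry2022 and 4.66 to 4.91 under Mulas2019, which do not overlap. Dnajb1, the classic stress-induced HSP40, was higher by 0.24 ± 0.037. Dnajb1 held 5.08, 5.03, 5.09 and 5.12 under Keniry2022, 4.77, 4.87, 4.87 and 4.85 under Mulas2019 and 5.08 and 4.94 at p0. The methods did not overlap, and p0 lay with Keniry2022 or just below it.

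The constitutive HSP70, Hspa8, was not called, at 0.30 ± 0.14 and an adjusted p of 0.0864 (limma). Its levels were 7.99, 7.601, 7.61 and 8.02 under Keniry2022, 7.68, 7.34, 7.76 and 7.22 under Mulas2019, and 7.79 and 7.40 at p0. In each group the library with few Y-linked reads was the higher one, and the 5 such libraries (7.68 to 8.02) did not overlap the other 5 (7.22 to 7.61). Over all features, 0.277% of the 11561 features tested in the model of all libraries were separated in this way. Among the 70 tested members, 2 were: Hspa8 and, over a much narrower gap, Dnaja3 (4.73 to 4.88 against 4.63 to 4.72). Within the libraries with few Y-linked reads the methods differed in Hspa8 by 0.28, and within the others by 0.33. In both sets the Keniry2022 libraries lay above the Mulas2019 ones, and the fit takes no account of these sets. Leaving out p20 Mulas2019 replicate 1 raised the difference to 0.39 and its adjusted p became 0.0385 (limma). The exons of Hspa8 hold small nucleolar RNA genes, and its processed pseudogenes can share reads.

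**Figure D2:**
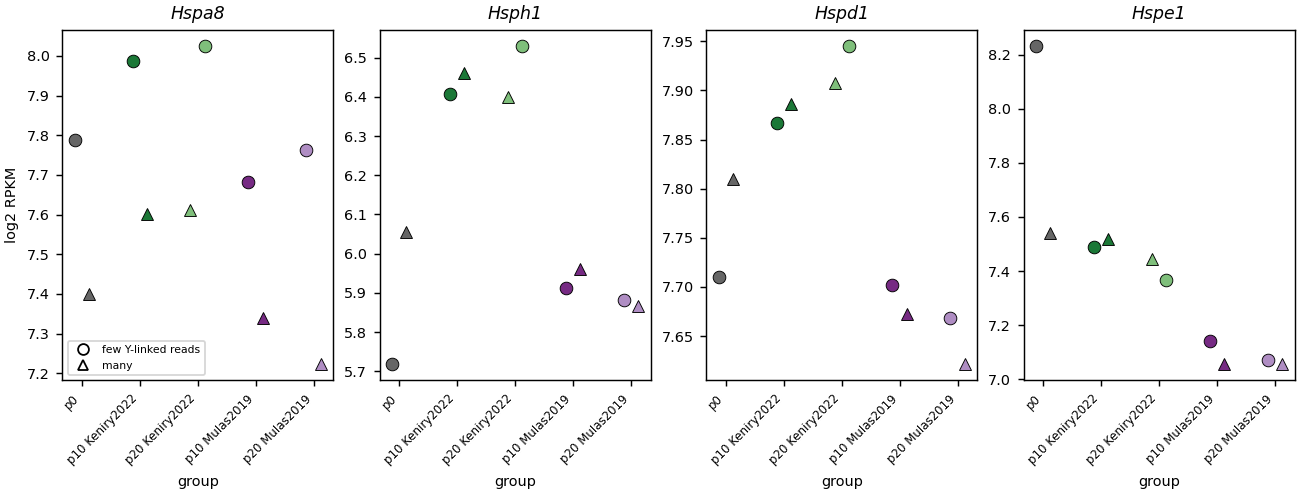
Log2 RPKM of Hspa8, Hsph1, Hspd1 and Hspe1 in each library, by group; circles are the libraries with few Y-linked reads and triangles those with many. Hspa8 splits by circle and triangle in every group, Hsph1 and Hspd1 split by method, and Hspe1 is highest in p0 replicate 1 at 8.23.

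The stress-inducible HSP70 genes were low. Hspa1b lay between 0.35 and 0.75 in all 10 libraries (95 to 127 reads) and differed by -0.045 ± 0.10 between the methods. Hspa1a had only 21 to 41 reads in each library, below what the filter asks. These genes are near copies of each other, and the handling of reads with several alignments is not given in the sources used here. Hspb1, a small heat shock protein with a pair of heat shock cores, held 6.73 to 6.97 against 6.46 to 6.83 and was not called (0.15 ± 0.082, 95% interval -0.037 to 0.33). Of the transcription factors, Hsf2 was higher by 0.22 ± 0.071 with overlapping libraries (4.48 to 4.74 against 4.22 to 4.53). Its call was lost in 5 of 17 alternatives. Among these were the fits without p10 Keniry2022 replicate 1 (0.22), p20 Keniry2022 replicate 1 (0.18) or p20 Mulas2019 replicate 1 (0.17). Hsf1, the main heat shock regulator, differed by -0.032 ± 0.049 (95% interval -0.14 to 0.077). Hsf1 held 3.92, 3.97, 3.804 and 3.86 under Keniry2022, 3.85, 3.93, 3.99 and 3.91 under Mulas2019 and 4.12 and 3.66 at p0. For Hsf2 the Keniry2022 libraries were at 4.62, 4.48, 4.74 and 4.58, those of Mulas2019 at 4.53, 4.40, 4.22 and 4.37 and those of p0 at 4.65 and 4.65. Only the second of these regulators has the Mulas2019 libraries at the low end.

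Hspa1b, Hspa1a and Hspb1 did not separate the methods. Hspa1b held 0.54, 0.40, 0.59 and 0.35 under Keniry2022, 0.48, 0.50, 0.44 and 0.63 under Mulas2019 and 0.65 and 0.75 at p0. Hspa1a held -1.99, -1.42, -1.73 and -1.45 under Keniry2022, -1.58, -1.27, -1.03 and -1.64 under Mulas2019 and -1.34 and -0.96 at p0. For Hspb1 the Keniry2022 libraries were at 6.86, 6.81, 6.73 and 6.97, those of Mulas2019 at 6.46, 6.68, 6.82 and 6.83 and those of p0 at 7.03 and 6.45.

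The 9 members lower under Keniry2022 were 6 J-domain genes, the HSP70 and HSP110 relatives Hspa2 and Hspa4l, and Hsp90ab1, which is described with its partner below. Hspa2, an HSP70 best known from the testis, held 1.85, 1.82, 1.89 and 1.83 under Keniry2022, 2.23, 2.31, 2.36 and 2.27 under Mulas2019, and 1.69 and 1.79 at p0. Every Mulas2019 library was above the other 6. Its difference was -0.45 ± 0.055, or 1.36-fold lower under Keniry2022, with an adjusted p of 0.000178 (limma). Hspa4l, an HSP110 relative, differed by -0.52 ± 0.12 from low levels (-0.41 to -0.088 against 0.15 to 0.32), and its p0 libraries were wide apart at -0.98 and 0.015. Dnajc27 differed by -0.23 ± 0.061. Both lost the call under quantile normalisation and in the model of all 10 libraries, where the adjusted p was 0.127 and 0.249 (limma).

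The cytosolic HSP90 genes moved in opposite directions. Hsp90ab1, the constitutive form and the most abundant member (chr17:45567775-45573271, minus strand), held 10.84, 10.89, 10.88 and 10.91 under Keniry2022 and 11.10, 11.12, 11.02 and 10.96 under Mulas2019. At p0 it was 10.69 and 10.68, below all other libraries. The difference was -0.17 ± 0.043, 1.13-fold lower under Keniry2022, with an adjusted p of 0.0075 (limma). Hsp90aa1, the stress-inducible form (chr12:110690605-110702728, minus strand), held 8.83, 8.80, 8.81 and 8.66 under Keniry2022, 8.61, 8.30, 8.24 and 8.31 under Mulas2019, and 8.85 and 9.09 at p0. It was 1.33-fold higher under Keniry2022 (0.41 ± 0.076, adjusted p = 0.00158, limma).

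The ratio of Hsp90ab1 to Hsp90aa1 in RPKM, which is per length, ordered the groups without overlap. It was 3.59 and 3.03 at p0, 4.01 to 4.76 under Keniry2022 and 5.60 to 7.07 under Mulas2019. Hsp90ab1 alone made up 21.6% to 22.1% of the summed RPKM of all members at p0, 23.7% to 24.7% under Keniry2022 and 28.5% to 30.6% under Mulas2019. The ratio was looked at after the values were seen and is given with no test. Under quantile normalisation Hsp90ab1 held the same rank in all libraries of the comparison and its difference vanished, and in the model of all 10 libraries its adjusted p was 0.0696 (limma).

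**Figure D3:**
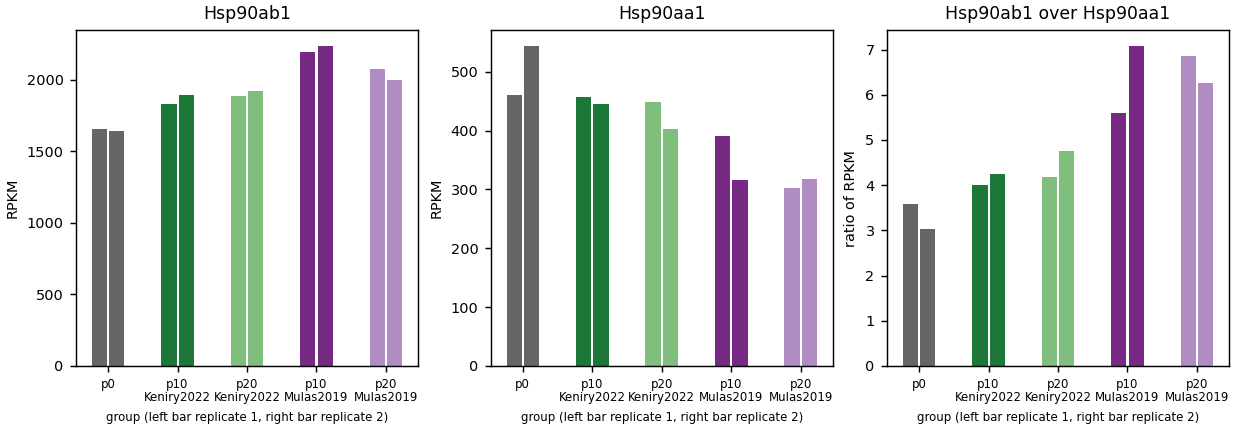
RPKM of Hsp90ab1 and Hsp90aa1 and their ratio in each library, with 2 bars per group for the 2 replicates. Hsp90ab1 is tallest and Hsp90aa1 shortest under Mulas2019, and the ratio runs from 3.03 at p0 to 7.07 at p10 Mulas2019.

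Because of that 1 gene, summed levels understate the shift of the rest. All 86 members summed to 7757 ± 78.8 RPKM under Keniry2022 and 7239 ± 253 under Mulas2019 (SD, 4 libraries per method), a ratio of 1.07, and without Hsp90ab1 the ratio was 1.15. Cytosolic members without Hsp90ab1 had a ratio of 1.22, with 1740 to 1824 RPKM under Keniry2022 and 1410 to 1533 under Mulas2019. At p0 these members held 1831 and 1757 RPKM. The CCT genes had a ratio of 1.16, the ER and mitochondrial members 1.08 each, and the members placed elsewhere 0.852.

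Of the CCT subunits, which assemble in equal number into the ring, 6 of 8 were called higher under Keniry2022. Of the 8 ring genes, Cct5 rose most, with 8.37, 8.31, 8.32 and 8.27 under Keniry2022, 8.12, 8.003, 7.94 and 7.98 under Mulas2019, and 8.44 and 8.41 at p0. The difference was 0.30 ± 0.042 with an adjusted p of 0.000333 (limma), and all Mulas2019 libraries were below the other 6. Cct8 rose by 0.30 ± 0.039, Cct6a by 0.24 ± 0.042, Cct4 by 0.24 ± 0.033, Tcp1 by 0.19 ± 0.058 and Cct7 by 0.18 ± 0.043. Cct2 and Cct3 were not called, at 0.10 ± 0.049 and 0.10 ± 0.072. Library by library, the called subunits beside Cct5 divided as follows. Cct8 held 8.25, 8.21, 8.29 and 8.22 under Keniry2022, 8.03, 7.96, 7.87 and 7.93 under Mulas2019 and 7.96 and 8.25 at p0. For Cct6a the Keniry2022 libraries were at 9.15, 9.14, 9.15 and 9.15, those of Mulas2019 at 8.99, 8.95, 8.86 and 8.81 and those of p0 at 8.57 and 9.11. Cct4 held 7.52, 7.47, 7.51 and 7.52 under Keniry2022, 7.32, 7.24, 7.21 and 7.28 under Mulas2019 and 7.73 and 7.56 at p0. Each of these had no overlap between the methods, and the p0 values of Cct8 and Cct6a were lower in replicate 1. Cct7 held 8.45, 8.41, 8.42 and 8.37 under Keniry2022, 8.34, 8.25, 8.15 and 8.19 under Mulas2019 and 8.46 and 8.50 at p0. For Tcp1 the Keniry2022 libraries were at 7.39, 7.31, 7.44 and 7.42, those of Mulas2019 at 7.38, 7.11, 7.17 and 7.13 and those of p0 at 7.33 and 7.39. Cct7 did not overlap between the methods and Tcp1 did. Cct2 held 8.48, 8.47, 8.57 and 8.52 under Keniry2022, 8.54, 8.41, 8.33 and 8.35 under Mulas2019 and 8.63 and 8.41 at p0. For Cct3 the Keniry2022 libraries were at 7.62, 7.68, 7.94 and 7.80, those of Mulas2019 at 7.58, 7.62, 7.62 and 7.80 and those of p0 at 7.73 and 7.55. These 2 subunits overlapped. Levels ran from 168 RPKM for Tcp1 to 568 RPKM for Cct6a under Keniry2022. Cct6b, a testis relative, did not pass the filter.

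The summed CCT level was 2311 and 2441 RPKM at p0, 2415 to 2526 under Keniry2022 and 2042 to 2263 under Mulas2019, with no overlap between the methods. Tcp1 ended its call without p10 Mulas2019 replicate 2 (0.16), and Cct2 gained one without p10 Mulas2019 replicate 1 (0.15). Under quantile normalisation Cct2 and Cct3 turned to -0.030 and -0.032, and Tcp1 and Cct7 were no longer called. In the model of all 10 libraries Cct6a, Cct7 and Tcp1 were not called (adjusted p = 0.153, 0.0537 and 0.0897, limma). Exons of Tcp1, Cct6a, Cct7 and Cct8 overlap other genes.

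**Figure D4:**
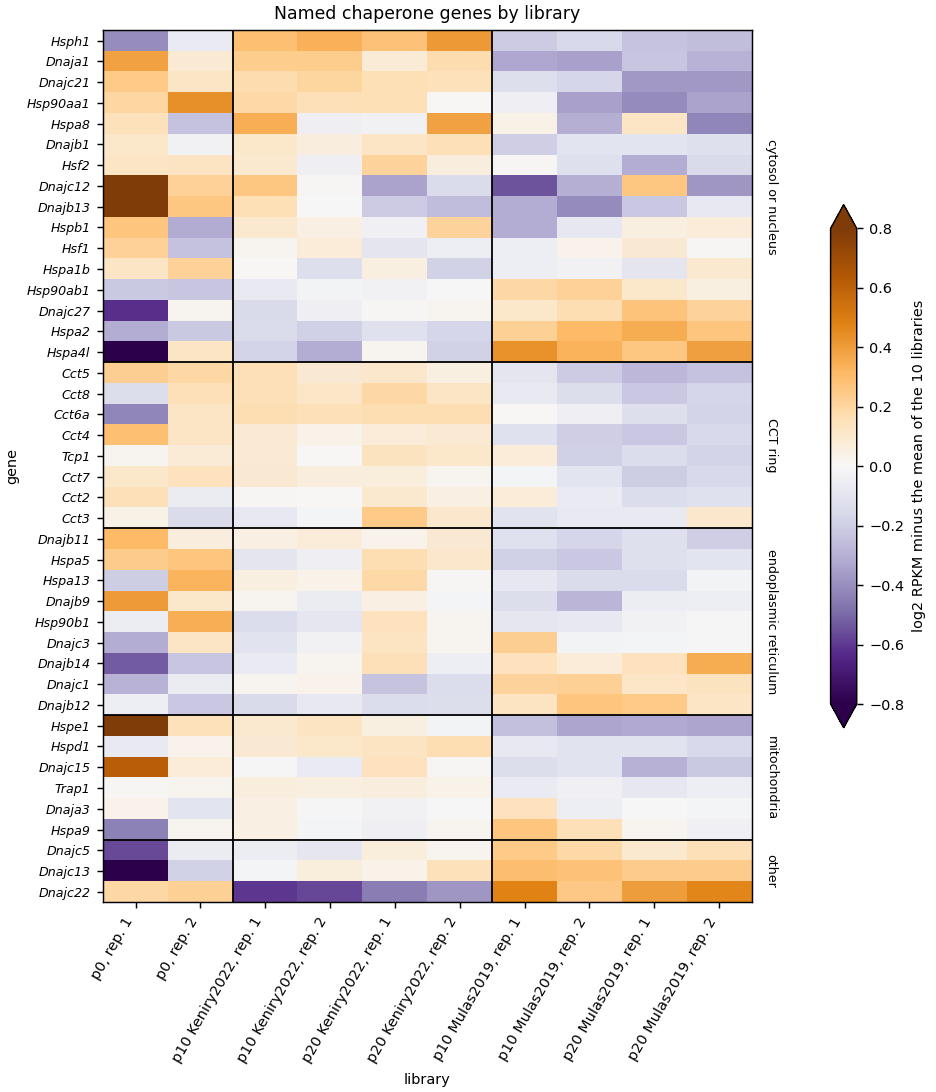
Level of 42 named members in each library as log2 RPKM minus the mean of the 10 libraries, grouped by location and ordered by the difference between the methods; orange is above and purple below the mean, and the scale ends at 0.8 either way. Among the cytosolic rows, all Mulas2019 columns are purple and all Keniry2022 columns orange for Hsph1, Dnaja1, Dnajc21, Hsp90aa1 and Dnajb1. Among the CCT rows this holds for Cct4, Cct5, Cct7 and Cct8. Hspa2 and Hsp90ab1 show the reverse, and the other cytosolic and CCT rows are mixed. In several rows p0 replicate 1 stands apart from p0 replicate 2.

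In the ER, the main HSP70 Hspa5, its relative Hspa13 and the J-domain genes Dnajb11, Dnajc10 and Dnajc14 were called higher, and the HSP90 was not called. Hspa5 (BiP), which binds nascent chains and holds the stress sensors in check, had 7.92, 7.97, 8.18 and 8.11 under Keniry2022, 7.82, 7.79, 7.89 and 7.91 under Mulas2019, and 8.25 and 8.28 at p0. Its difference was 0.19 ± 0.058 with an adjusted p of 0.0181 (limma). The call of Hspa5 was lost in 3 of 17 alternatives, among them without p20 Keniry2022 replicate 2 (0.17) or p10 Mulas2019 replicate 2 (0.17). Dnajb11, a soluble J protein of the BiP cycle, was higher by 0.21 ± 0.035 with no overlap (4.73 to 4.79 against 4.50 to 4.59), with an adjusted p of 0.0696 in the model of all 10 libraries (limma). Hsp90b1 (GRP94), whose promoter holds a pair of ERSE matches, differed by 0.034 ± 0.057 (95% interval -0.092 to 0.16). Dnajb9, which recruits BiP to the sensor Ire1, differed by 0.13 ± 0.058 and Dnajc3, an inhibitor of eIF2 kinases, by -0.045 ± 0.069, and neither was called.

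Dnajb11 held 4.74, 4.77, 4.73 and 4.79 under Keniry2022, 4.59, 4.53, 4.58 and 4.50 under Mulas2019 and 5.01 and 4.76 at p0. Its p0 replicate 1 was above all other libraries, and p0 replicate 2 lay with Keniry2022. For Hsp90b1 the Keniry2022 libraries were at 7.93, 7.98, 8.21 and 8.09, those of Mulas2019 at 7.98, 7.99, 8.04 and 8.06 and those of p0 at 8.02 and 8.42. Dnajb9 held 3.28, 3.20, 3.31 and 3.24 under Keniry2022, 3.12, 2.98, 3.20 and 3.21 under Mulas2019 and 3.66 and 3.37 at p0. Dnajc3 held 3.95, 4.03, 4.19 and 4.07 under Keniry2022, 4.29, 4.04, 4.04 and 4.04 under Mulas2019 and 3.75 and 4.18 at p0. None of the last 3 separated the methods, and Hsp90b1 was highest in p0 replicate 2.

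The ER members that fell are membrane-bound J proteins. Dnajb12, which works in the degradation of ER proteins, held 2.92 to 2.99 under Keniry2022 and 3.19 to 3.33 under Mulas2019, a difference of -0.32 ± 0.049 with an adjusted p of 0.000595 (limma). Dnajc1 differed by -0.25 ± 0.075, a call lost under quantile normalisation and in the model of all 10 libraries (adjusted p = 0.0589, limma), and its exons overlap Mllt10 by 749 bases on the other strand. Hspa13 was higher by 0.17 ± 0.058, a call lost in 6 of 17 alternatives. Among these were the fits without any 1 of p10 Keniry2022 replicate 1 (0.17), p10 Keniry2022 replicate 2 (0.18), p20 Keniry2022 replicate 1 (0.13), p10 Mulas2019 replicate 2 (0.15) or p20 Mulas2019 replicate 1 (0.15). Of the 3 members with an ERSE match, 1 was called higher and none lower.

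In mitochondria, both genes of the HSP60 folding chamber were higher, as were Trap1 and Dnajc15. Hspe1 (HSP10, the lid of the chamber, chr1:55088132-55091307) held 7.49, 7.52, 7.45 and 7.37 under Keniry2022 and 7.14, 7.06, 7.07 and 7.06 under Mulas2019, a difference of 0.37 ± 0.040 with an adjusted p of 9.56e-05 (limma). Hspd1 (HSP60, chr1:55077835-55088243) held 7.87, 7.89, 7.91 and 7.95 against 7.70, 7.67, 7.67 and 7.62, a difference of 0.24 ± 0.032. At p0 the pair did not move together: Hspe1 was 8.23 in replicate 1 and 7.54 in replicate 2, and Hspd1 was 7.71 and 7.81. The ratio of Hspd1 to Hspe1 in RPKM was 0.697 in p0 replicate 1, 1.21 in p0 replicate 2 and 1.29 to 1.53 in the other 8 libraries. Exons of the pair overlap by 112 bases on opposite strands, the strand setting of the counts is not given in the sources used here, and the table gives the row of Hspe1 the gene identifier of Hspd1.

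Trap1, the mitochondrial HSP90, was higher by 0.11 ± 0.028 and Dnajc15, a J protein of the import motor, by 0.21 ± 0.055. The mitochondrial HSP70 Hspa9 went with neither of them: it held 8.33, 8.26, 8.24 and 8.30 under Keniry2022 and 8.55, 8.44, 8.31 and 8.25 under Mulas2019, and was not called (-0.10 ± 0.060, 95% interval -0.24 to 0.032). It was called without p20 Mulas2019 replicate 2 (-0.15) and under quantile normalisation (-0.25). Its p0 libraries held 7.85 and 8.30, the first below all other libraries. Its J partner Dnaja3 differed by -0.018 ± 0.046. Dnaja3 held 4.78, 4.72, 4.71 and 4.73 under Keniry2022, 4.88, 4.69, 4.73 and 4.72 under Mulas2019 and 4.76 and 4.63 at p0. For Trap1 the Keniry2022 libraries were at 6.60, 6.59, 6.59 and 6.57, those of Mulas2019 at 6.47, 6.499, 6.45 and 6.49 and those of p0 at 6.54 and 6.55. Trap1 did not overlap between the methods although the difference was small. In the model of all 10 libraries the same contrast left Hspe1 at an adjusted p of 0.0872, Trap1 at 0.144 and Dnajc15 at 0.222 (limma), and quantile normalisation also ended the calls of Trap1 and Dnajc15.

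The single largest difference over all members was in Dnajc22, a membrane J protein with no well established role in mESCs. It held 1.25, 1.28, 1.41 and 1.48 under Keniry2022 and 2.33, 2.11, 2.26 and 2.32 under Mulas2019, from 125 to 254 reads per library. At p0 it was 2.05 and 2.08, above every Keniry2022 library and below every Mulas2019 one. The difference was -0.90 ± 0.077, 1.87-fold lower under Keniry2022, with an adjusted p of 4.37e-05 (limma). Dnajc13, an endosomal J protein, and Dnajc5, a chaperone of secretory vesicles, were lower by smaller amounts (-0.21 ± 0.042 and -0.18 ± 0.048), and neither was called in the model of all 10 libraries (adjusted p = 0.425 and 0.245, limma).

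Members with a heat shock core were set beside those without, as a description. Of 14 tested members with a core in a window, 8 were called higher, 1 lower and 5 not (median 0.19, from -0.24 to 0.54), beside 25.9% higher and 25.5% lower among all features. Of 42 tested members with a window and no core, 18 were higher, 5 lower and 19 not (median 0.12, from -0.52 to 0.43). Hspd1 and Hspe1 count separately here although they share 1 run of cores. Among the members whose stretches are printed above, Hsph1, Dnaja1, Dnajb6, Cct5 and Hspe1 were called higher, and Cct2, Hspb1 and Hspa1b were not called. The printed stretches are not all of the cores. Dnajc27, which was called lower, has a core that is not printed, as do Dnajc10 and Cct6a, which were called higher.

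When the passages were taken apart in the model of all 10 libraries, few members reached the threshold. At p10, 4 members were higher and 2 lower of 70 (6 in all, 8.57%, against 8.53% of 11561 features, with 3.76% higher and 4.77% lower): Hsph1 (0.50 ± 0.11), Dnaja1 (0.57 ± 0.11), Dnajc21 (0.34 ± 0.076), Dnaja2 (0.31 ± 0.073), Hspa2 (-0.44 ± 0.096) and Dnajc22 (-0.95 ± 0.11). Dnaja2 falls outside the rule for named genes and is given because the count is short. At p20, Hsph1 (0.59 ± 0.11), Dnajc21 (0.53 ± 0.076) and Dnajc22 (-0.84 ± 0.11) were called, 3 of 70 against 2.15% of all features (0.614% higher and 1.54% lower). No member was called for a method by passage interaction (limma), against 0% of all features. In that test 0 members had an unadjusted p below 0.05, beside 405 of all features.

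These counts moved with single libraries. Dropping the first or the second p0 library raised the p10 count to 37 or 36 (52.9% and 52.2% of the members tested, beside 47.9% and 48.1% of all features in the same fits), and the p20 count to 33 in each case (47.1% and 47.8%, beside 36.2% and 36.3%). The p10 count was 0 without either p10 Keniry2022 library or p10 Mulas2019 replicate 1, and 1 without any other p10 or p20 library. The p20 count was 1 without either p10 Mulas2019 library and 0 without any other p10 or p20 library. In the fits without a p10 or p20 library, at most 3.75% of all features were called at p10 and at most 0.244% at p20.

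Against p0, more members were called under Mulas2019 than under Keniry2022, as were more of all features. At equal passage the Mulas2019 cells had also been in culture for more days. All 4 comparisons use the same p0 libraries, and the Keniry2022 and Mulas2019 differences are given side by side for that reason, with no test between them. Under Mulas2019, 24 of 70 members were called at p10 (7 higher, 17 lower, against 33% of all features, 15.7% higher and 17.3% lower), with a median of -0.12 over the members and 0.0056 over all features. At p20 under Mulas2019, 24 were called (7 higher, 17 lower, against 29.3%, 14.7% higher and 14.6% lower), with medians of -0.15 and 0.034. Under Keniry2022, 1 member (Dnajc22, lower) was called at p10 and 0 at p20 (limma), against 0.199% of all features each time (0.0432% higher and 0.156% lower at p10, 0.0519% and 0.147% at p20). At an unadjusted p below 0.05 (limma) there were 13 of 70 members at p10 and 10 at p20 under Keniry2022. Of all 11561 features, 2860 and 3237 were below that cut, a larger share than of the members.

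**Figure D5:**
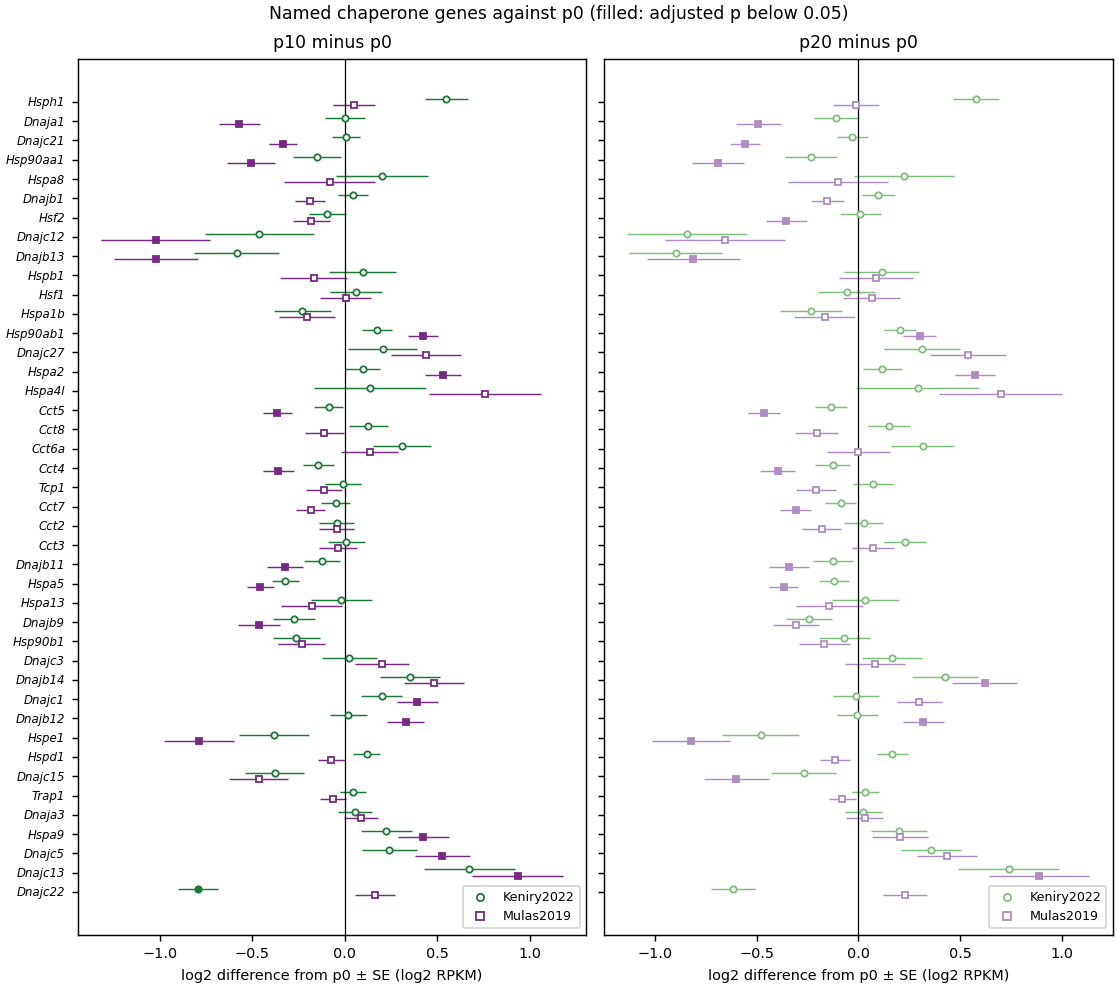
Log2 difference from p0 with its SE for 42 named members at p10 and p20 (model of all 10 libraries), with circles for Keniry2022, squares for Mulas2019 and filled symbols where the adjusted p was below 0.05. Filled symbols are nearly all squares; the exception among circles is Dnajc22 at p10.

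Members called lower than p0 under Mulas2019 came from the cytosol (10 at each passage), the CCT genes (2 and 3), the ER (3 and 2) and mitochondria (2 and 2), and none was placed elsewhere. Hspe1 differed from p0 by -0.79 ± 0.19 at p10 and -0.82 ± 0.19 at p20, Hsp90aa1 by -0.51 ± 0.13 and -0.69 ± 0.13, Dnaja1 by -0.57 ± 0.11 and -0.49 ± 0.11, Cct5 by -0.37 ± 0.078 and -0.47 ± 0.078, and Hspa5 by -0.46 ± 0.073 and -0.37 ± 0.073. The same genes under Keniry2022 differed from p0 at p10 and p20 by -0.38 and -0.48 (Hspe1), -0.15 and -0.23 (Hsp90aa1), 0.00032 and -0.11 (Dnaja1), -0.087 and -0.13 (Cct5), and -0.32 and -0.12 (Hspa5), and none of them was called. Dnajb13, a cilium-associated J protein, was lower by 1.02 at p10 and by 0.81 at p20 under Mulas2019, from 3.17 and 2.36 at p0. For Dnajb13 the Keniry2022 libraries were at 2.26, 2.10, 1.89 and 1.84, those of Mulas2019 at 1.79, 1.70, 1.88 and 2.03 and those of p0 at 3.17 and 2.36. Dnajc12 held 0.86, 0.61, 0.26 and 0.46 under Keniry2022, 0.055, 0.30, 0.86 and 0.23 under Mulas2019 and 1.58 and 0.82 at p0. In both, p0 replicate 1 stood above every other library. Dnajb13 differed from p0 by -0.59 and -0.90 under Keniry2022, with no call, and Dnajc12 was called at p10 under Mulas2019 (-1.02 ± 0.30) and not at p20 (-0.66 ± 0.30).

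Higher than p0 under Mulas2019 were Hsp90ab1 (0.42 ± 0.080 and 0.30 ± 0.080), Hspa2 (0.53 ± 0.096 and 0.57 ± 0.096) and Dnajc13 (0.93 ± 0.25 and 0.89 ± 0.25). Dnajb14, an ER membrane J protein, was called at p20 (0.62 ± 0.16) and not at p10 (0.48 ± 0.16). The p0 libraries of Dnajc13 were 3.22 and 4.14, against 4.57 to 4.62 under Mulas2019 and 4.31 to 4.48 under Keniry2022. Hsph1 took the other course: it stayed at 0.050 ± 0.11 and -0.012 ± 0.11 under Mulas2019 and stood at 0.55 ± 0.11 and 0.58 ± 0.11 under Keniry2022 (adjusted p = 0.109 and 0.0956, limma). Dnajc22 was -0.79 ± 0.11 and -0.62 ± 0.11 under Keniry2022, and 0.16 ± 0.11 and 0.23 ± 0.11 under Mulas2019.

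The Mulas2019 counts against p0 rested on each of several libraries. The share of all features called rose and fell with them in the same fits. The same held for the Keniry2022 counts against p0 that are given below. These shifts are therefore not particular to the chaperones. The p10 count was 0 without either p10 Mulas2019 library, 10 without either p10 Keniry2022 library, 15 and 14 without p20 Keniry2022 replicate 1 and 2, and 13 without either p20 Mulas2019 library. The p20 count was 0 without either p20 Mulas2019 library, 6 and 7 without p10 Keniry2022 replicate 1 and 2, 9 without either p20 Keniry2022 library, and 9 and 10 without p10 Mulas2019 replicate 1 and 2. When p0 replicate 1 was dropped the counts were 35 and 34, and when p0 replicate 2 was dropped they were 44 and 45. Under Keniry2022, dropping p0 replicate 1 gave 5 and 4 members at p10 and p20, dropping p0 replicate 2 gave 35 and 38 (50.7% and 55.1%, beside 64.3% and 66.5% of all features in the same fits), and dropping any other library gave 0. Under Mulas2019 dropping p0 replicate 2 called 71.8% and 71.1% of all features.

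Other genes of the same systems were counted from fixed lists in the pooled comparison. Of 19 tested cytosolic co-chaperones and prefoldin subunits, 11 were higher under Keniry2022, 3 lower and 5 not called (median 0.13, beside -0.0030 over all features). Among them, Ahsa1, which activates the HSP90 ATPase, rose by 0.30 ± 0.027, Chordc1 by 0.33 ± 0.047, Cdc37, which loads kinases onto HSP90, by 0.19 ± 0.033, and Pfdn2 of the prefoldin complex that feeds CCT by 0.25 ± 0.043. The members that fell were Bag3 (-0.76 ± 0.082) and Bag2 (-0.55 ± 0.14), which release clients from HSP70, and Unc45a (-0.21 ± 0.062).

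Of 19 tested genes of ER folding and the unfolded protein response, 5 were higher, 7 lower and 7 not called (median -0.032), beside 25.9% higher and 25.5% lower among all features, so the share called higher is that of the whole. Among the 5 higher were Manf (0.26 ± 0.038), Pdia6 (0.25 ± 0.049) and Creld2 (0.23 ± 0.039). Among the 7 lower were Ddit3 (CHOP, a transcription factor of the stress response, -1.02 ± 0.11), Herpud1 (-0.57 ± 0.059) and Ero1l (-0.73 ± 0.13). The sensors Atf6 (-0.24 ± 0.049) and Ern1 (-0.36 ± 0.12) were also lower. The genes named are not all of those called, and they do not divide folding factors from stress genes. Of 11 mitochondrial co-chaperones and proteases, 3 were higher, 2 lower and 6 not called (median -0.062), which is also near those shares of all features. Grpel1, the nucleotide exchange factor of Hspa9, rose by 0.32 ± 0.032, the protease subunit Clpp by 0.33 ± 0.039 and Yme1l1 by 0.24 ± 0.045, and Spg7 (-0.23 ± 0.041) and Hscb (-0.18 ± 0.068) fell.

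Some markers of cell state also differed between the methods. Of 8 naive markers, 3 were higher under Keniry2022 (Pou5f1 by 0.40 ± 0.050), 1 lower (Klf4, -0.40 ± 0.087) and 4 not called. Of all features 51.5% were called (25.9% higher and 25.5% lower), so the share of naive markers called is near that of the whole. The summed level of the naive markers was 1387 to 1531 RPKM against 1278 to 1308. The summed trophoblast markers were 22.3 to 26.6 RPKM against 27.2 to 34.4, with Eomes and Tfap2c lower. Summed primitive endoderm markers were 1.57 to 2.18 RPKM against 1.88 to 2.50, fibroblast markers 0.406 to 0.892 against 0.351 to 0.520, and markers of primed or early differentiating cells 2.18 to 2.47 against 1.74 to 2.69, of which Pou3f1 was higher and the only 1 tested. Their part in the chaperone differences was not tested.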

How the data were processed

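RNA-seq was compared in 10 libraries of 5 groups. Per the labels and the study, reads were aligned to mm10, and the authors quantified them with SeqMonk. The study names HISAT2 and the submitters' processing notes name TopHat2 2.0.12, so the aligner is not settled here. For the annotation release and the strand setting, nothing is given in the sources used here. The authors deposited 1 table of log2 values, named as log CPM, whose values are log2 RPKM: 0 reads were entered as 0.9 reads, and 6624 features sat at this floor in all libraries. Library totals and reads per gene were worked out from the floors, and for 85 of 86 members 1 length gave whole reads in all libraries (within 0.12 reads). Hspa14 took its GENCODE length. Reads are not independent molecules, and the totals bear on counting error only. No column was left unused (0).

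Members were annotated by name with GENCODE vM21 (GRCm38, mm10). In 16 members the table gives the gene identifier of another gene, so names were used. Exons of 34 members overlap another gene, and reads there cannot be assigned with confidence.

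The deposited log2 values were tested in R 4.3.3 with limma 3.58.1 (moderated test with intensity trend, two-sided, Benjamini-Hochberg over all features tested, threshold 0.05). Features needed a log2 value above 0 in at least 50% of the libraries of the fit. This kept 70 members and left out 16, of which 13 are cytosolic, 1 CCT, 1 mitochondrial and 1 placed elsewhere. The limma trend method stood in for the voom fit of the study, because no counts were analysed here. The pooled comparison used the 8 libraries of p10 and p20 with no block, and all others used 1 model of the 10 libraries and 5 groups. The spread within a group is that between the 2 lines. Scripts were tested on simulated data. Figures and tables used Python 3.11.15, pandas 2.3.3 and matplotlib 3.10.9.

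The named genes are a fixed core of the best known chaperones, the 3 called members with the largest rise and fall in each location, and the 3 in each comparison with p0. The members and lists were chosen with earlier results of these data known. Alternatives were other filters (none, or log2 above 2), a pseudocount of 1, quantile normalisation, median centring, library quality weights, a replicate block, passage as a term, the model of all libraries and leaving out each library.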

Additional observations from a re-analysis of the deposited data

Results flagged for a closer look

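Among the 42 named members, each of the 4 Keniry2022 and 4 Mulas2019 libraries was examined for a value far from the rest (84 groups of 4, of which chance alone would mark about 1 in 20). In 3 groups 1 library stood off, with its gap to the next library divided by the range of the group above the 95% critical value of Dixon. Hspe1 was highest in p10 Mulas2019 replicate 1 (7.14 in a range of 7.06 to 7.14, ratio 0.830). Dnajc3 was highest in the same library (4.29 in a range of 4.04 to 4.29, ratio 0.971). Cct6a was lowest in p10 Keniry2022 replicate 2 (9.14), within a range of only 9.14 to 9.15 (ratio 0.858).

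Dnajc3 also changed sign between the passages, with each Keniry2022 library below each Mulas2019 library at p10 and above it at p20, and the method difference was larger at p20 by 0.26 on the log2 scale. The test of this difference did not call it (0.26 ± 0.21 SE, unadjusted p = 0.25 from the limma fit over all features).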

How the results depend on the processing

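The pooled count of 39 members ranged from 32 to 42 over the other alternatives (34 to 41 with 1 library left out). It was 18 (15 higher, 3 lower) in the model of all 10 libraries. The 32 under quantile normalisation were 45.7% of the members, beside 46% of all features. Library quality weights gave 41 members at p10 (58.6%, beside 50.9% of all features) and 30 at p20 (42.9%, beside 35.3%). They gave 0 for p10 Keniry2022, p10 Mulas2019 and p20 Mulas2019 against p0, as they did over all features. For p10 Keniry2022 against p0 the count was also 0 with no filter, the stricter filter or the pseudocount. Quantile normalisation gave 2 for p10 Keniry2022 (2.86%, beside 0.208% of all features) and 1 for p20 Keniry2022 (1.43%, beside 0.251%). For p20 Mulas2019 against p0 it gave 14 (6 higher, 8 lower, against 7 and 17), which is 20% beside 27.5% of all features. With 1 library left out, the counts ran from 0 to 37 (p10), 0 to 33 (p20), and against p0 from 0 to 35 and 0 to 38 (Keniry2022 at p10 and p20) and 0 to 44 and 0 to 45 (Mulas2019). Where a group kept 1 library, it was assumed to vary like the others. The cause of these shifts was not tested.

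Same-numbered libraries deviated together (r of 0.17 to 0.63) except in pairs with p20 Keniry2022 (-0.70 to -0.12), the group whose Y-linked reads are in the opposite order, so the labels' numbers do not pair all libraries. A replicate block uses these numbers, so it cannot show whether the calls depend on the line. This block left 39 members in the pooled comparison (55.7%, beside 49.3% of all features). It gave 3 at p10 (4.29%, beside 6.18%) and 0 for p10 Keniry2022 against p0.

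The medians moved to 0.014 (cytosol, no filter), 0.069 (CCT, quantile normalisation) and 0.13 (ER, stricter filter). Of 704 values of 42 named members under the alternatives, 655 kept their direction and side of the threshold, 35 lost the call, 5 gained it and 9 changed sign. Sign changes were under quantile normalisation in Cct2 (-0.030), Cct3 (-0.032), Hsp90b1 (-0.099), Hspa1b (0.16), Trap1 (-0.012) and Dnajb14 (0.026), and, with 1 library left out, in Dnajc3 (-0.088 to 0.016) and Dnaja3 (-0.041 to 0.023), both above 0 without p10 Mulas2019 replicate 1, and in Hsp90b1 (-0.019 to 0.075), below 0 without p20 Keniry2022 replicate 1. Of these genes only Trap1 was called in the pooled comparison. Depth limits the low members most: tested members had as few as 16 reads in a library.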

Other observations

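The 16 members that did not pass the filter had mean log2 values of at most -0.29 and at most 123 reads in a library. Among them are tissue forms such as Hspb2, Hspb3, Hspb7 and Dnajb8, the testis forms Hspa1l and Cct6b, and the mitochondrial Dnajc28. On the log2 RPKM scale, Hspa1l held -2.54 to -1.65 under Keniry2022 and -1.28 to -0.70 under Mulas2019, with 1778 bases of its exons shared with the antisense gene Gm10501. Also on that scale, Dnajb4 held -0.62 to -0.30 under Keniry2022 and -0.12 to 0.054 under Mulas2019. Dnaja4 held -1.75 to -1.14 and -1.23 to -0.74. These genes were chosen after their values were seen, and the values are given with no test.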
